A study of Drosophila melanogaster with 42 samples.

Results

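The odorant receptor (Or) and gustatory receptor (Gr) genes of Drosophila melanogaster were examined in lists of chromatin regions from whole embryos. The genes were all protein-coding genes of the RefSeq table of the dm6 genome whose symbol is Or or Gr followed by a digit. They numbered 119 of 13842 protein-coding genes on X, 2L, 2R, 3L and 3R, with 59 Or and 60 Gr genes. The X chromosome held 14 of them, 8 Or and 6 Gr, and the autosomes 105, of which 27 lay on 2L, 28 on 2R, 22 on 3L and 28 on 3R.

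Embryos of 11-12 h and of 3-4 h were fixed with formaldehyde and their chromatin was immunoprecipitated and sequenced (ChIP-seq), 26 ChIP and 16 input samples in all. Chromatin cut with micrococcal nuclease (MNase) was used for MSL2, for MOF and for histone H4 acetylated at lysine 16 (H4K16ac), with 3 samples per antibody at 11-12 h and 3 at 3-4 h. The enzyme was used at 2.9 units per g of embryos at 11-12 h and at 0.9 at 3-4 h. Sonicated chromatin was used for H4K16ac and for histone H3 trimethylated at lysine 36 (H3K36me3), with 2 samples per antibody at 11-12 h and 2 at 3-4 h. No genotype or treatment other than stage separates the groups, and the sources used here name neither strain nor sex. Each of the 12 deposited lists stands for all samples of 1 antibody, preparation and stage, with MSL2 listed apart for mononucleosomal and subnucleosomal fragments. The lists hold positions without heights, so depth is unknown, no spread between samples could be computed and no difference between stages was tested.

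As background, Or and Gr proteins are the ligand-binding receptors of smell and taste neurons. Most Or proteins work beside the shared co-receptor Orco, and each receptor is made in a small set of sensory neurons of the larva or the adult. Fly males raise transcription of their single X chromosome with the MSL complex, whose subunit MSL2 is male-specific and whose subunit MOF acetylates H4K16. The complex is known for preferring transcribed genes, whose bodies carry H3K36me3, and H4K16ac reaches further along the X than the complex itself. In the account below, a gene counts as in a list when a region covers at least 1 bp of its body, and an active gene is a gene other than an Or or Gr gene whose body is touched by an H3K36me3 region of the same stage.

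The X-linked receptor genes were short, with a median length of 1467.5 bp and a range of 1159 to 3956 bp, against a median of 2541 bp for the other X-linked genes. They stood at 12 separate loci. Gr10b, Gr10a and Or10a were neighbours, and Gr10a and Or10a have the same coordinates in the gene table, so every value of one is also that of the other.

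At 11-12 h, 11 of the 14 X-linked receptor genes lay in H4K16ac regions and 3 lay in no list at either stage. The 11 are also those in any of the 12 lists, against 75.5% of all X-linked genes. None of the 14 was touched by MSL2, either in mononucleosomal regions, which touched 20.6% of the 2197 X-linked genes at 11-12 h and 17.8% at 3-4 h, or in subnucleosomal ones, which touched 6.78% and 5.05%. A share of 0 of 14 has a Wilson 95% interval that reaches up to 21.5%. MOF regions touched the same 4 receptor genes, Or2a, Gr5a, Or7a and Gr8a, at 11-12 h and at 3-4 h, which is 28.6% (interval 11.7 to 54.6%), against 54.7% of all X-linked genes at 11-12 h and 48.5% at 3-4 h. These intervals cover counting error over genes only, and neighbouring genes share regions.

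H4K16ac on MNase chromatin touched 11 of 14 receptor genes at 11-12 h (78.6%, interval 52.4 to 92.4%), close to the 74.5% of all X-linked genes. At 3-4 h it touched 5 (35.7%, interval 16.3 to 61.2%), Or2a, Gr5a, Or7a, Gr8a and Gr9a, against 59.1% of all X-linked genes. H4K16ac on sonicated chromatin touched 10 of 14 at 11-12 h (71.4%, interval 45.4 to 88.3%), against 68.1% of X-linked genes. It touched 4 at 3-4 h (28.6%, interval 11.7 to 54.6%), Gr2a, Or2a, Or7a and Gr8a, against 59.2%. By both preparations together, 10 of 14 were in H4K16ac at 11-12 h and 3 at 3-4 h, against 67.7% and 55.0% of X-linked genes. H3K36me3 touched Or2a and Gr8a at both stages, 2 of 14 (14.3%, interval 4.01 to 39.9%), while it touched 55.5% of X-linked genes at 11-12 h and 53.8% at 3-4 h. The receptor genes were thus near the X-linked share for H4K16ac at 11-12 h. They were below it for H4K16ac at 3-4 h and for MOF and H3K36me3 at both stages. These gaps were not tested, and for MOF at 3-4 h the X-linked share of 48.5% lay inside the receptor interval. For MNase H4K16ac at 3-4 h the X-linked share of 59.1% lay inside the receptor interval too.

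**Figure D1:**
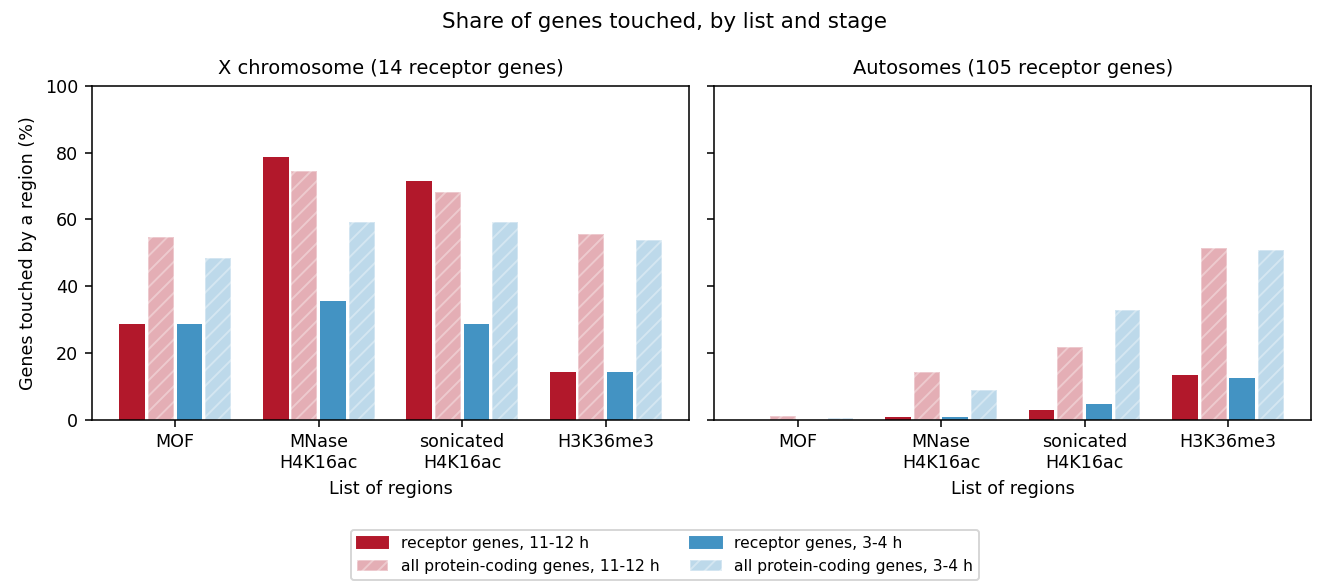
Share of genes touched by a region (%, vertical axis) in 4 kinds of list, for the X chromosome (left) and the autosomes (right); solid bars are receptor genes and hatched bars all protein-coding genes, red for 11-12 h and blue for 3-4 h. On the X the solid bars for H4K16ac stand at 78.6% and 71.4% at 11-12 h, beside 35.7% and 28.6% at 3-4 h, while no solid bar on the autosomes exceeds 13.3%.

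In bases, the receptor genes stood above the other X-linked genes for H4K16ac at both stages and near them for MOF, unlike in the counts of genes. The 14 bodies sum to 22.6 kb with the shared coordinates counted once. MNase H4K16ac covered 79.3% of them at 11-12 h and 28.6% at 3-4 h, against 40.9% and 22.0% of the bodies of other X-linked genes. Sonicated H4K16ac covered 51.1% and 27.0%, against 29.3% and 20.2% in other X-linked genes. MOF covered 19.7% at 11-12 h and 22.2% at 3-4 h, against 20.5% and 18.7%. H3K36me3 covered 5.01% at 11-12 h and 6.22% at 3-4 h, against 18.7% and 18.2%, below the other X-linked genes as in the counts. The other X-linked genes are longer, and the part of gene length in these values was not tested.

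**Figure D2:**
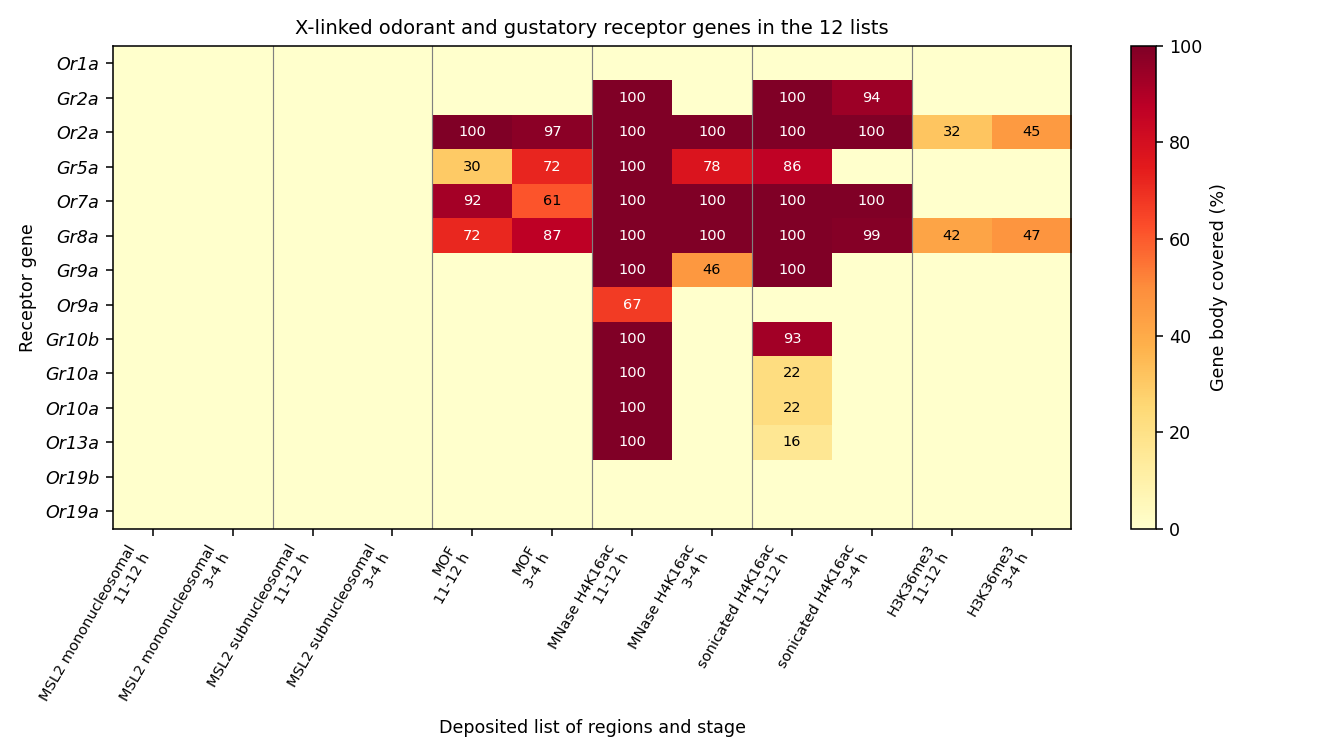
Percent of each X-linked receptor gene's body (rows, in order along the chromosome) covered by the regions of each of the 12 lists (columns, 11-12 h left of 3-4 h); darker cells are more covered and cells without a number are 0. Or2a, Gr5a, Or7a and Gr8a have MOF at both stages, 10 genes are covered whole by MNase H4K16ac at 11-12 h, and the rows of Or1a, Or19b and Or19a hold no number.

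The 4 receptor genes in MOF regions each lay beside an active gene whose MOF region ran into them. Or2a (chrX:2246231-2247567, dm6) lies 27 bp from crn, which codes for a splicing factor and was covered whole by H3K36me3 at both stages. MOF covered 100% of Or2a at 11-12 h, in a 26.9-kb region over 7 genes that also holds kz, an RNA helicase gene, and 97.4% at 3-4 h, in a 4.36-kb region over Or2a, crn and CG3191. MNase H4K16ac covered Or2a whole in a 50.5-kb region over 13 genes at 11-12 h and in a 26.8-kb region over 11 genes at 3-4 h. Sonicated H4K16ac did the same with regions of 50.8 kb and 20.3 kb. H3K36me3 covered 31.5% of Or2a at 11-12 h and 45.4% at 3-4 h, in regions of 3.07 kb and 3.26 kb that also lay on crn. Or2a was thus in the same lists at both stages, and the single regions on it differed in width. Short gaps enter these widths. Counted from the first base of Or2a, another MOF region of 3-4 h ran from -21.137 to -0.633 kb. The MOF region of 11-12 h ran from -21.402 to 5.475 kb. Another MNase H4K16ac region of 3-4 h ran from -23.222 to -9.39 kb.

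Or7a (chrX:8164266-8165708) lies 125 bp from CG2278, and the same MOF region reached slpr, which codes for a kinase upstream of JNK. MOF covered 92.4% of Or7a at 11-12 h in a 12.6-kb region and 61.0% at 3-4 h in a 12.3-kb region. It was the X-linked receptor gene nearest to MSL2, with a mononucleosomal MSL2 region 358 bp away at 11-12 h and 345 bp away at 3-4 h. MNase H4K16ac covered it whole in a 47.8-kb region over 19 genes at 11-12 h, 14 of them active, and in a 14.6-kb region over 7 genes at 3-4 h. Sonicated H4K16ac covered it whole in regions of 29.4 kb and 10.7 kb. H3K36me3 stopped 478 bp short of Or7a at 11-12 h and 832 bp short at 3-4 h.

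Gr8a (chrX:9227137-9228827), known as a receptor for the plant toxin L-canavanine, overlaps CG12121, which H3K36me3 covered whole at both stages. MOF covered 71.7% of Gr8a at 11-12 h in a 5.08-kb region and 87.0% at 3-4 h in a 5.53-kb region. The region of 3-4 h also touched Ir8a, the gene for a co-receptor of ionotropic smell receptors. MNase H4K16ac covered Gr8a whole in a 66.9-kb region over 18 genes at 11-12 h, the widest region over any X-linked receptor gene, and in an 11.8-kb region over 5 genes at 3-4 h. That wide region also held mxc, a gene for a histone locus body protein. Sonicated H4K16ac covered 100% in a 10.5-kb region at 11-12 h and 98.8% in a 1.78-kb region at 3-4 h. H3K36me3 covered 41.9% of Gr8a at 11-12 h and 47.1% at 3-4 h, in regions shared with CG12121.

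Gr5a (chrX:5680617-5682488), the trehalose receptor of sugar-sensing neurons, was the one receptor gene whose MOF regions did not reach its nearest active gene. That gene was Tre1, which codes for a receptor that guides germ cell migration, 640 bp to one side, whereas the regions ran over CG42449, 752 bp to the other side. MOF covered 29.8% of Gr5a at 11-12 h in a 1.51-kb region and 72.1% at 3-4 h in a 2.27-kb region. MNase H4K16ac covered 100% at 11-12 h in a 10.0-kb region over 4 genes and 77.6% at 3-4 h in a 2.44-kb region over 2. Sonicated H4K16ac covered 86.2% in a 14.8-kb region at 11-12 h and lay 675 bp away at 3-4 h. H3K36me3 was absent from Gr5a, 1.87 kb away at 11-12 h and 1.63 kb away at 3-4 h.

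**Figure D3:**
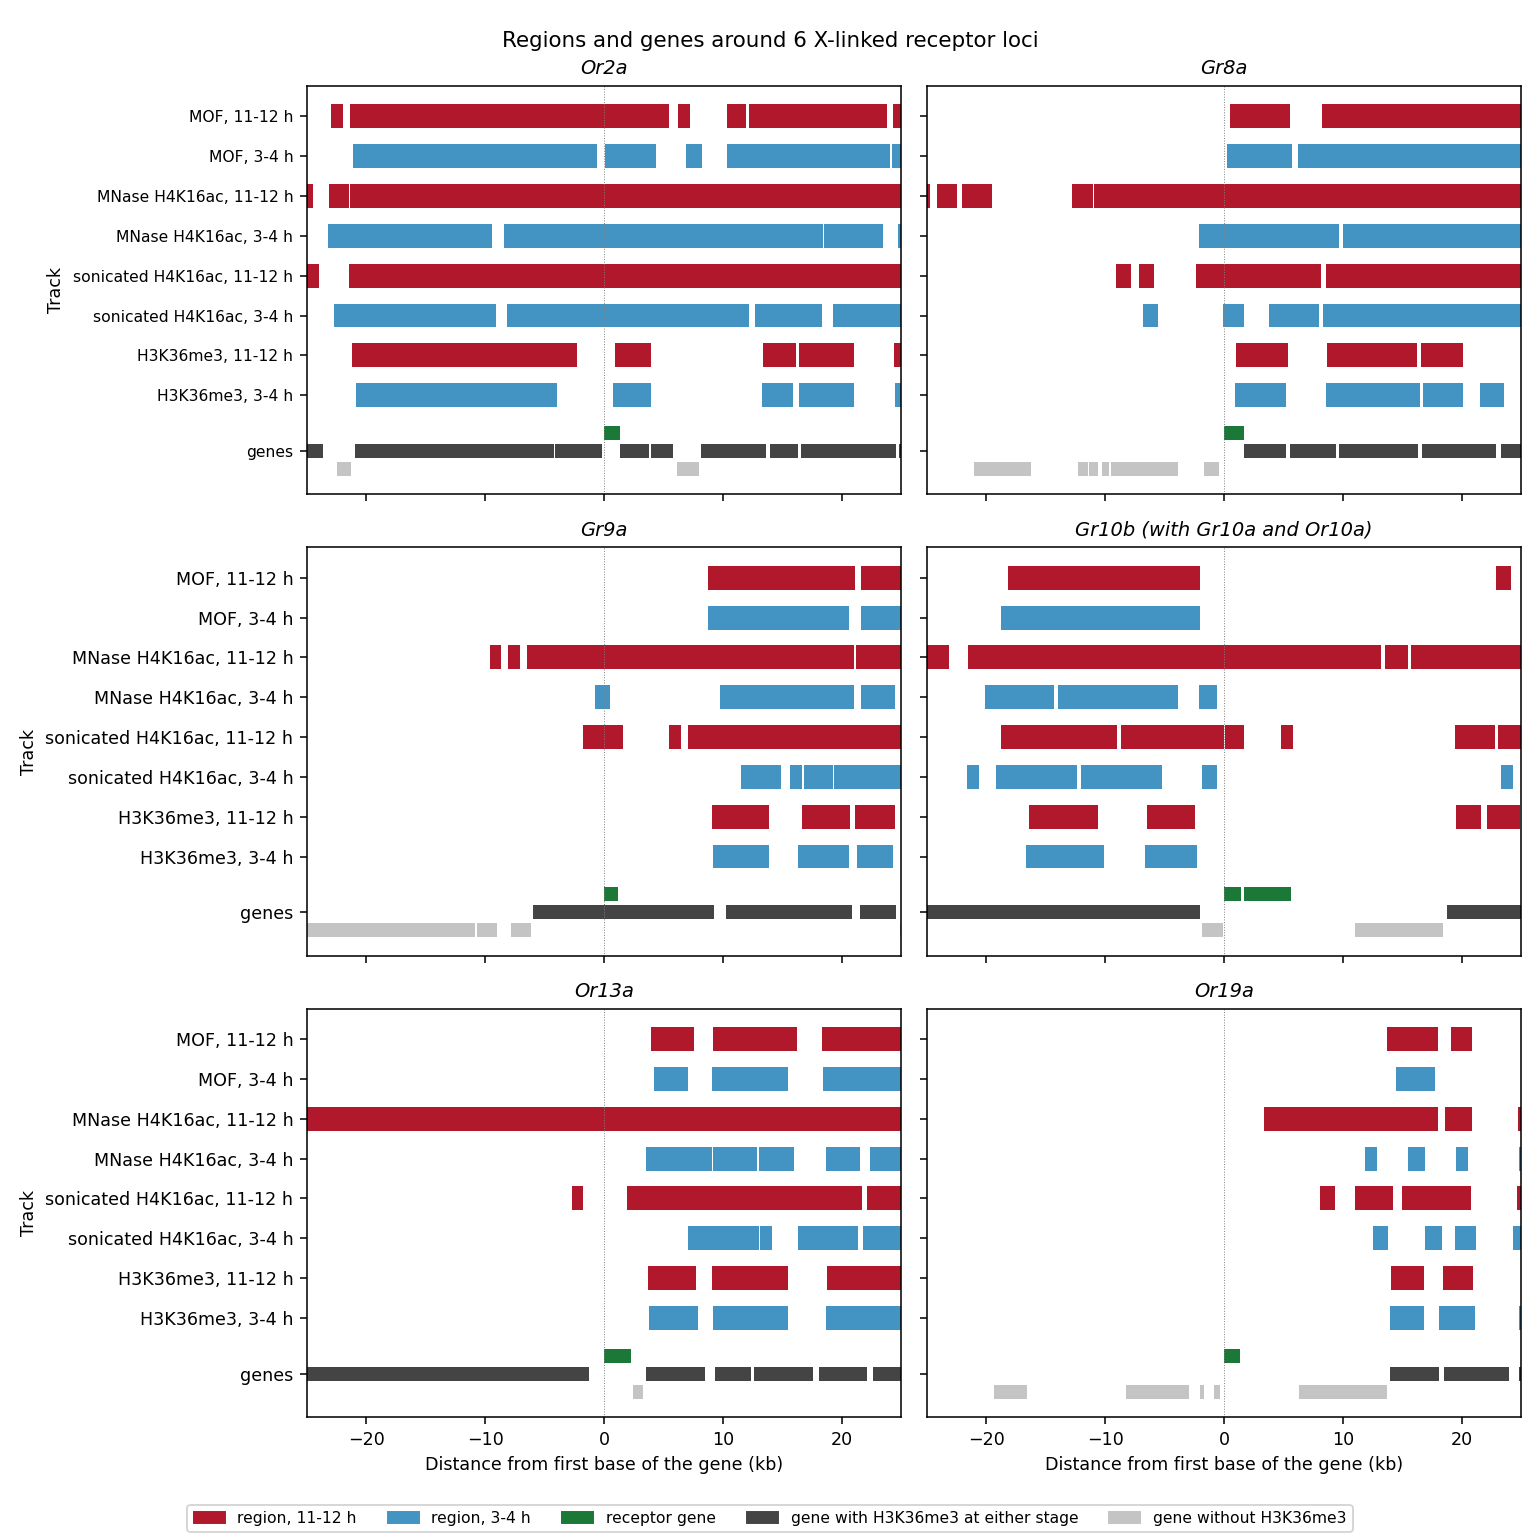
Regions (red, 11-12 h; blue, 3-4 h) and genes (green, receptor genes; dark grey, genes with H3K36me3 at either stage; light grey, without) within 25 kb of the first base of the named receptor gene, at 6 loci, with distance in kb on the horizontal axis. MNase H4K16ac of 11-12 h runs across Or2a, Gr8a, Gr9a, the Gr10b locus and Or13a, and stops 2.02 kb short of Or19a.

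The other 7 receptor genes in H4K16ac at 11-12 h had no MOF at either stage. Gr2a (chrX:1452430-1454177) overlaps one end of futsch, a gene for a neuronal microtubule-associated protein that H3K36me3 did not touch at either stage. Its nearest active gene is CG14785, 1038 bp away. MNase H4K16ac covered Gr2a whole at 11-12 h in a 28.3-kb region over 14 genes, 12 of them active, and lay 515 bp away at 3-4 h. Sonicated H4K16ac covered it whole at 11-12 h in a 29.9-kb region over 13 genes. At 3-4 h a sonicated region of 2.01 kb covered 94.1% of it and touched futsch and no active gene. MOF lay 2325 bp away at 11-12 h and 1119 bp away at 3-4 h, so at the later stage Gr2a was inside H4K16ac by both preparations and outside MOF.

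The Gr10 locus lies on one side of dlg1, a gene for a scaffold protein of cell junctions and synapses. Gr10b (chrX:11411783-11413190) is 2007 bp from dlg1, and Gr10a with Or10a (chrX:11413467-11417422) is 3691 bp from it. Or10a is known as a receptor for methyl salicylate. A single 34.8-kb MNase H4K16ac region covered all 3 genes whole at 11-12 h, together with part of dlg1, CG15196 and Gs2, a glutamine synthetase gene without H3K36me3. At 3-4 h the nearest such region ended 578 bp from Gr10b and 2262 bp from Gr10a. Sonicated H4K16ac covered 92.6% of Gr10b at 11-12 h, in regions of 8.63 kb and 1.57 kb, and 22.0% of Gr10a, in a 1.00-kb region, and it ended 586 bp and 2270 bp from them at 3-4 h. MOF ended at nearly the same place, 2053 bp from Gr10b at 11-12 h and 2049 bp from it at 3-4 h.

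Or13a (chrX:15974425-15976706) lies 1261 bp from Cep164, a gene for a centriole protein. MNase H4K16ac covered it whole at 11-12 h in a 65.1-kb region over 13 genes, 11 of them active, including exd, the gene for a Hox cofactor, and eIF5, a translation initiation factor gene. At 3-4 h the nearest such region was 1277 bp away. Sonicated H4K16ac covered 16.4% of Or13a at 11-12 h in a 19.8-kb region and lay 4758 bp away at 3-4 h. MOF lay 1663 bp away at 11-12 h and 1941 bp away at 3-4 h. Both preparations thus listed Or13a at 11-12 h only, but they covered very different shares of it.

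Gr9a (chrX:10061627-10062785) lies inside the body of CG15312, a 15.2-kb gene of which H3K36me3 covered 1.25% at 11-12 h and 0.289% at 3-4 h, with the nearest H3K36me3 region 7.89 kb and 8.04 kb from Gr9a. It was the one X-linked receptor gene in MNase H4K16ac at 3-4 h without MOF: a 1.32-kb region covered 46.4% of it. At 11-12 h a 27.5-kb region covered it whole and reached ZAP3, 9073 bp away, and on the other side Yp1, a yolk protein gene. MOF lay 7610 bp from Gr9a at 11-12 h and 7595 bp from it at 3-4 h. Sonicated H4K16ac covered Gr9a whole at 11-12 h in a 3.30-kb region and lay 10.4 kb away at 3-4 h.

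Or9a (chrX:10458186-10459676) was listed by MNase chromatin alone. A 1.00-kb region, the narrowest width in that list, covered 67.1% of it at 11-12 h and touched no other gene. At 3-4 h MNase H4K16ac lay 908 bp away. Sonicated H4K16ac lay 578 bp away at 11-12 h and 543 bp away at 3-4 h. Its nearest active gene, Neb-cGP, is 1060 bp away and was covered whole by H3K36me3 at both stages.

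Or1a, Or19b and Or19a stayed outside all 12 lists. Or1a (chrX:315123-316566) lies inside CG3777 and 10 bp from CG32816, a 154-kb gene of which H3K36me3 covered 0.507% at 11-12 h and 0.479% at 3-4 h. H3K36me3 itself was 41.6 kb from Or1a at 11-12 h and 42.3 kb at 3-4 h, and MNase H4K16ac 35.4 kb and 40.4 kb. Or19b (chrX:20094398-20095767) was 46.6 kb from MNase H4K16ac at 11-12 h and 57.9 kb at 3-4 h. Or19a (chrX:20141819-20143188), known as a receptor for citrus odours, was 2.02 kb from it at 11-12 h and 10.5 kb at 3-4 h, with Rab35, a vesicle traffic gene, as the nearest active gene at 12.6 kb. Or19a and Or19b are near-identical copies of 1370 bp each, so reads can be shared between them and a region there is uncertain.

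**Figure D4:**
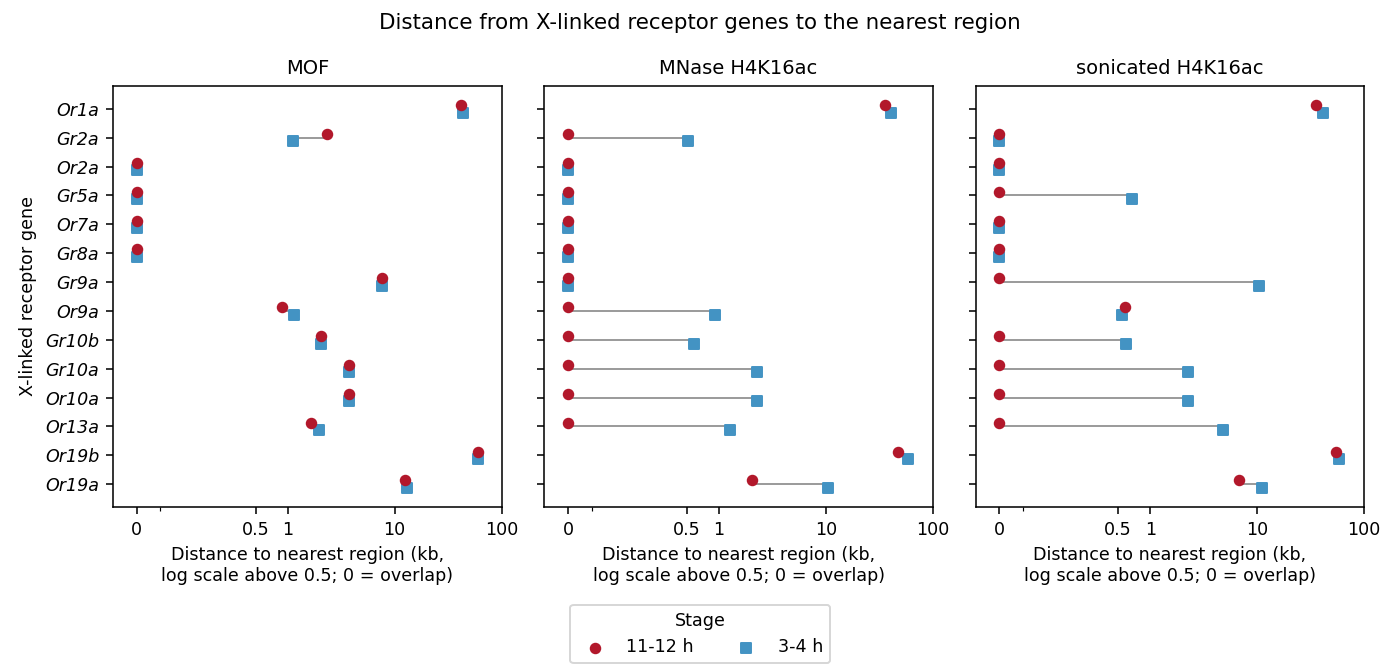
Distance in kb (horizontal axis, logarithmic above 0.5; 0 means overlap) from each X-linked receptor gene to the nearest region of MOF, MNase H4K16ac and sonicated H4K16ac, with red circles for 11-12 h and blue squares for 3-4 h. In the MOF panel the same 4 genes are at 0 at both stages, while 6 genes per H4K16ac panel are at 0 at 11-12 h and not at 3-4 h.

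By overlap of at least 1 bp, the stages differed in the count of receptor genes for H4K16ac and not for MOF. With 1 kb added to each gene the gap was smaller for H4K16ac, with 11 genes at 11-12 h and 8 at 3-4 h on MNase chromatin and 11 and 7 on sonicated chromatin, and MOF held 5 and 4. In the widest 50% of each list MOF held 3 and 2. Of the 9 receptor genes outside MNase H4K16ac at 3-4 h, 6 were inside at 11-12 h: Gr2a, Or9a, Gr10b, Gr10a, Or10a and Or13a. Over all X-linked genes outside at 3-4 h, 37.6% were inside at 11-12 h, within the receptor interval of 35.4 to 87.9%. Of the 10 outside sonicated H4K16ac at 3-4 h, 6 were inside at 11-12 h (Gr5a, Gr9a, Gr10b, Gr10a, Or10a and Or13a), against 23.1% of X-linked genes. The receptor interval there was 31.3 to 83.2%, and it counts Gr10a and Or10a apart. No receptor gene left either list, as was so for all but 0.077% of X-linked genes in MNase H4K16ac at 3-4 h and 0.922% of those in sonicated H4K16ac. For MOF, 0 of the 10 genes outside at 3-4 h were inside at 11-12 h, against 13.5% of X-linked genes, and none of the 4 inside left, against 1.69%. The interval for 0 of 10 reaches up to 27.8% and holds its background. Both H4K16ac preparations listed Gr10b, Gr10a, Or10a and Or13a at 11-12 h only. These genes stand at 2 loci, and several of the counted genes share a region. With at least 50% of the body required, sonicated H4K16ac held 7 receptor genes at 11-12 h and 4 at 3-4 h. MNase H4K16ac then held 11 and 4.

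The receptor genes that came to lie in MNase H4K16ac were close to a region of 3-4 h, a pattern shared by X-linked genes at large. All 6 of the 6 genes within 2.5 kb of a region at 3-4 h were inside at 11-12 h, against 86.3% of all X-linked genes at such a distance. None of the 3 genes over 10 kb away was inside, against 14.2% of X-linked genes. With sonicated chromatin, 4 of 5 within 2.5 kb were inside, against 67.4% of X-linked genes, and 1 of 4 over 10 kb away, Gr9a, against 6.95%. The 1 gene in between, Or13a, was inside too, against 31.9%. Every one of these backgrounds lay inside the receptor interval, which ran from 61.0 to 100% and from 0 to 56.1% in the 2 MNase classes. These distance classes were chosen after the values were seen.

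At both stages, 12 of 14 X-linked receptor genes (85.7%, interval 60.1 to 96.0%) lay within 5 kb of an active gene, the exceptions being Or19b and Or19a. The background was near this, at 76.2% of X-linked genes at 11-12 h and 74.1% at 3-4 h. With H3K36me3 required over at least 50% of the neighbour, 7 of 14 had one at both stages, a count for which no background was computed. Without the 50% requirement, 10 of the 12 receptor genes lacking H3K36me3 themselves lay within 5 kb of an active gene at both stages. The shares of X-linked genes without the mark were 48.8% at 11-12 h and 46.7% at 3-4 h. For Or1a and Gr9a the neighbour is active only by a small part of a long body, as given above. Of the 9 MNase H4K16ac regions over receptor genes at 11-12 h, 8 also touched an active gene, the region on Or9a being the exception. Their median width was 34.8 kb and their number of genes ranged up to 19. At 3-4 h all 5 such regions touched an active gene, with a median width of 11.8 kb and up to 11 genes. The share of all X-linked regions that touch an active gene was not computed, so these counts stand without a background. The widths are those of single regions, which short gaps can split, as at Or2a.

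Set against X-linked genes of like surroundings, the receptor genes stood as follows. Of the 12 with an active neighbour, 11 (91.7%) were in MNase H4K16ac at 11-12 h, against 91.8% of all X-linked genes with one, and 5 (41.7%) at 3-4 h, against 77.0%. For MOF the counts were 4 of 12 at both stages, against 70.8% at 11-12 h and 64.3% at 3-4 h. Most X-linked genes in these shares carry H3K36me3 themselves, so genes without it but with an active neighbour were also taken. Of the 10 such receptor genes, MNase H4K16ac touched 9 (90.0%, interval 59.6 to 98.2%) at 11-12 h and 3 (30.0%, interval 10.8 to 60.3%) at 3-4 h, against 72.3% and 40.5% of such X-linked genes. Sonicated H4K16ac touched 8 and 2 of the 10, against 55.1% and 41.8%. MOF touched 2 of the 10 at both stages, Gr5a and Or7a, against 18.9% and 15.4%. Against genes of this kind, with no mark of their own and an active gene close by, every one of the 6 backgrounds lay inside the interval of the receptor genes. With 10 genes these intervals are wide, and they count Gr10a and Or10a apart. They therefore cannot show that the receptor genes match the background.

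The autosomal receptor genes gave the contrast. Of the 105, 15 (14.3%, interval 8.85 to 22.2%) lay in any of the 12 lists, against 56.4% of autosomal genes. MSL2 and MOF touched none of the 105 at either stage. The MSL2 background was 0.0687% of autosomal genes at 11-12 h and 0.0515% at 3-4 h for mononucleosomal regions and 0.756% and 0.0429% for subnucleosomal ones, and for MOF it was 1.22% and 0.395%. With backgrounds of this size a count of 0 says little about these genes. The interval for 0 of 105 reaches up to 3.53%.

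H4K16ac was rare on them. MNase chromatin listed Or85f alone at 11-12 h and Gr47b alone at 3-4 h, 1 of 105 each (0.952%, interval 0.168 to 5.2%), against 14.2% and 9.01% of the 11645 autosomal genes. Sonicated chromatin listed 3 at 11-12 h, Gr61a, Or85f and Gr94a (2.86%, interval 0.976 to 8.07%), and 5 at 3-4 h, the same 3 with Gr47b and Gr59f (4.76%, interval 2.05 to 10.7%). The autosomal background there was 21.9% at 11-12 h and 32.9% at 3-4 h. Of the autosomal receptor genes, 1 of 104 outside MNase H4K16ac at 3-4 h was inside later, and 0 of 100 for sonicated chromatin. The shares of all autosomal genes were 9.2% and 3.49%, below the 37.6% and 23.1% of X-linked genes. The interval for 0 of 100 reaches up to 3.7% and holds its background, so that count says little about these genes. Of the 5 in sonicated H4K16ac at 3-4 h, 2 were outside at 11-12 h, against 40.7% of autosomal genes. Those outside a list lay at a median of 69.7 kb from MNase H4K16ac at 11-12 h and 78.6 kb at 3-4 h, of 39.6 kb and 31.0 kb from sonicated H4K16ac, and of 20.9 kb and 21.0 kb from H3K36me3.

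H3K36me3 touched 14 autosomal receptor genes at 11-12 h (13.3%, interval 8.11 to 21.1%) and 13 at 3-4 h (12.4%, interval 7.38 to 20.0%), against 51.5% and 50.8% of autosomal genes. Every one of these regions also touched a gene other than an Or or Gr gene. Such a gene counts as active by the definition used here, so this is no separate finding. Gr66a, a bitter taste receptor gene, lay whole inside a 9.03-kb region with Sbp2, BI-1 and Cpsf6 at 11-12 h and a 10.2-kb region at 3-4 h. Or43b, which overlaps Cul1, a ubiquitin ligase subunit gene, and lies beside Kdm4A, a histone demethylase gene, was covered whole by regions of 7.54 kb at 11-12 h and 8.05 kb at 3-4 h over all of them. Gr43a, the fructose receptor gene, was covered to 80.9% at 11-12 h and whole at 3-4 h by regions on Dhx15, an RNA helicase gene. Gr32a, a gene for a receptor of bitter compounds and pheromone, was covered to 71.1% at 11-12 h and whole at 3-4 h by regions on the overlapping CG6230. Gr63a, a gene for a subunit of the carbon dioxide receptor, named here after its values were seen, was reached only at its edge, 1.74% at 11-12 h and 2.62% at 3-4 h, by regions on Lamtor4, Ccz1 and Ubi-p63E. Gr64f, a sugar co-receptor gene, Gr58c, Or67b and Or83a lay partly under regions on neighbouring genes, with 33.7% (Gr64f) to 49.5% (Gr58c) of their bodies covered at 11-12 h and 46.7% (Or83a) to 59.5% (Gr58c) at 3-4 h.

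Or85f, a receptor for the odour of parasitoid wasps, was the one autosomal receptor gene in H3K36me3 at 11-12 h and not at 3-4 h, 1 of the 92 outside at 3-4 h, against 5.77% of autosomal genes. It lies at chr3R:9398190-9399551, 19 bp from CG34117. At 11-12 h a 5.86-kb H3K36me3 region covered 81.8% of it and reached RpL34b, a ribosomal protein gene. MNase H4K16ac covered 62.0% of it at 11-12 h in a 1.64-kb region and none at 3-4 h, and sonicated H4K16ac covered 32.6% at 11-12 h and 35.2% at 3-4 h. Gr94a (chr3R:23051689-23052903) overlaps p53, the tumour suppressor homologue, and lay whole in H3K36me3 at both stages, with sonicated H4K16ac over 31.8% of it at 11-12 h and 28.6% at 3-4 h. Gr47b is 29 bp from san, an acetyltransferase gene of sister chromatid cohesion. H3K36me3 covered 89.1% of Gr47b at 11-12 h and 87.6% at 3-4 h, while H4K16ac touched it at 3-4 h only, whole on MNase chromatin and over 9 bp on sonicated chromatin. Gr59f, 139 bp from AIMP3, a gene of the tRNA synthetase complex, had no sonicated H4K16ac at 11-12 h and 34.2% of its body under it at 3-4 h. Gr61a, a gene of the sugar receptor group 91 bp from JMJD5, was in sonicated H4K16ac alone, over 21.1% of its body at 11-12 h and 28.6% at 3-4 h. The H4K16ac regions on autosomal receptor genes were between 1.00 kb and 3.46 kb wide.

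**Figure D5:**
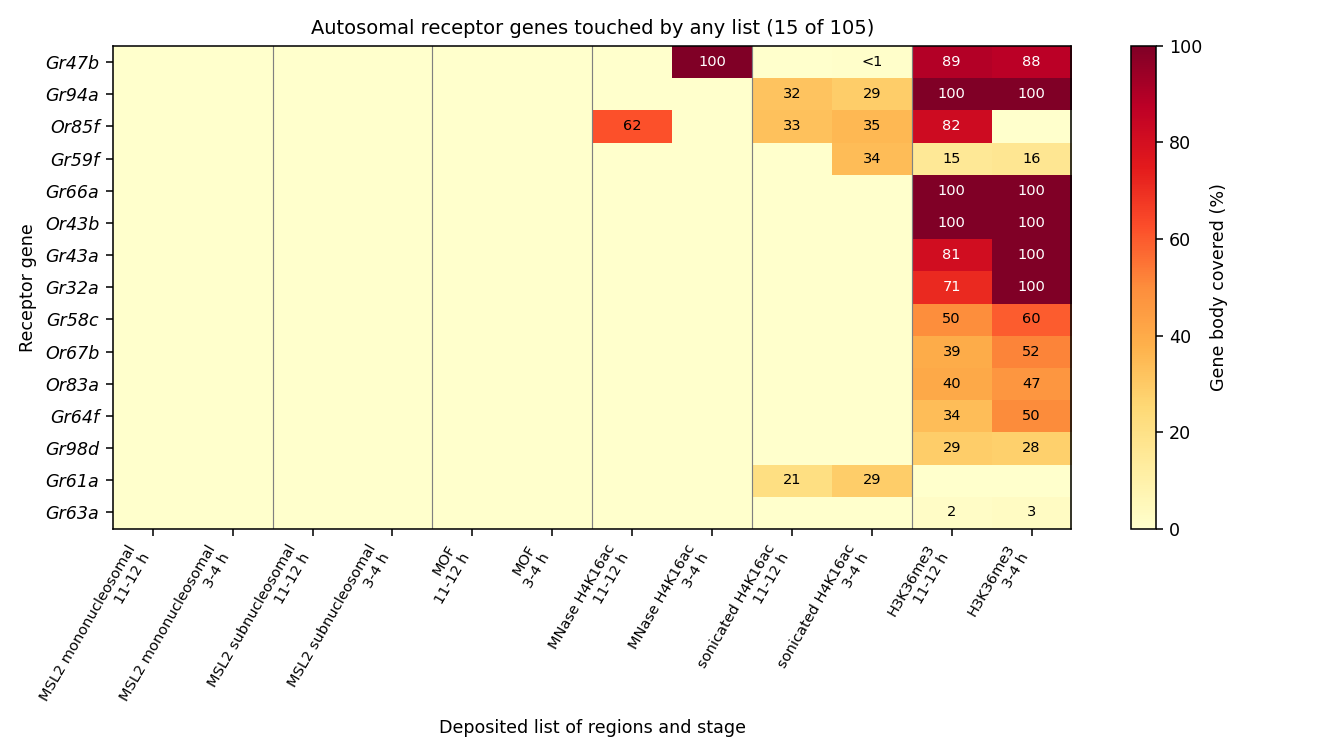
Percent of the body covered by each of the 12 lists (columns, 11-12 h left of 3-4 h) for the 15 autosomal receptor genes touched by any list (rows, most lists at the top). The filled cells stand mainly in the H3K36me3 columns, 5 genes have H4K16ac in at least 1 list, and no cell of the MSL2 and MOF columns is filled.

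A smaller share of autosomal than of X-linked receptor genes had an active gene close by. An active gene lay within 5 kb of 39 of 105 (37.1%) at 11-12 h and 37 of 105 (35.2%) at 3-4 h, against 71.2% and 70.5% of autosomal genes. They formed 75 loci, 17 of which held more than 1 receptor gene and the largest 6. Where an autosomal receptor gene did have an active neighbour, MNase H4K16ac touched 1 of 39 at 11-12 h and 1 of 37 at 3-4 h, against 19.2% and 12.5% of all autosomal genes with one. Sonicated H4K16ac touched 3 of the 39 and 5 of the 37, against 29.7% and 45.2%. On the X the MNase counts were 11 of 12 and 5 of 12. Most autosomal genes with an active neighbour carry H3K36me3 themselves, so those without it were also taken. Of such receptor genes, MNase H4K16ac touched 0 of 25 at 11-12 h and 0 of 24 at 3-4 h. The shares of such autosomal genes were 4.02% and 3.17%. Sonicated H4K16ac touched 1 of the 25 and 2 of the 24, against 4.46% and 11.8%. Each of these backgrounds lay inside the receptor interval, so these counts show no gap. Without an active neighbour, none of the 66 autosomal receptor genes at 11-12 h and none of the 68 at 3-4 h was in H4K16ac by either preparation. The backgrounds were 1.88% and 0.699% of such autosomal genes for MNase chromatin and 2.36% and 3.44% for sonicated chromatin.

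Other genes of smell and taste were counted from a list of ionotropic receptors (Ir), odorant-binding proteins (Obp), CheA and CheB proteins, pickpocket channels (ppk), Orco, Snmp1 and Snmp2. Of 21 such genes on the X, MNase H4K16ac touched 11 (52.4%) at 11-12 h and 6 (28.6%) at 3-4 h, against the 74.5% and 59.1% of all X-linked genes. Sonicated H4K16ac touched 7 and 6, against 68.1% and 59.2%, H3K36me3 4 and 3, against 55.5% and 53.8%, and MOF 4 and 3, against 54.7% and 48.5%. MSL2 touched none. In MOF at both stages were Ir8a, Obp19d and ppk28, a water taste channel gene. The cluster of Obp19a, Obp19b, Obp19c and Obp19d lay in H4K16ac of both preparations at both stages. Obp8a, ppk8, ppk23, Ir7g and Ir10a were in MNase H4K16ac at 11-12 h and not at 3-4 h. That change was seen in 37.6% of all X-linked genes outside the list at 3-4 h. Of 142 autosomal genes of smell and taste so listed, MNase H4K16ac touched 2 at 11-12 h and 3 at 3-4 h. The shares of all autosomal genes were 14.2% and 9.01%. Sonicated H4K16ac touched 2 and 6, against 21.9% and 32.9%, and H3K36me3 touched 23 (16.2%) at both, against 51.5% and 50.8%. Orco was in none of the 12 lists.

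As a check of stage, H3K36me3 touched none of 10 marker genes of the early embryo at 11-12 h and 3 of them (Kr, hb and zld) at 3-4 h. Of 10 marker genes of differentiated neurons, glia and muscle it touched elav, nSyb, repo and Tm1 at both stages, so these lists do not separate the stages by the later markers. Among 6 markers of chemosensory neurons, Ir25a, Ir8a and acj6 were in H3K36me3 at both stages, and Orco, Ir76b and lush were in no list. The MNase dose differed with the stage, so in the MNase lists dose and stage cannot be told apart. The sonicated lists, made without the enzyme, held 10 X-linked receptor genes at 11-12 h and 4 at 3-4 h. With at least 50% of the body required they held 7 and 4.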

How the data were processed

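ChIP-seq regions of whole embryos were used in 12 lists. The authors deposited them as plain positions (chromosome, start and end on dm6) with no score, height or count. Per the labels' descriptions each list covers all replicates of its antibody, preparation and stage, so replicates could not be compared and the depth per sample is unknown. Per the submitters' processing notes, Bowtie2 2.2.9, SAMtools and HOMER were used, with settings and use of inputs not given in the labels or lists used here. The narrowest deposited region is 1000 bp, 2000 bp for mononucleosomal MSL2 and 200 bp for subnucleosomal MSL2.

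Genes were whole gene spans of the RefSeq table of the Release 6 assembly, the assembly of dm6. The table has neither strand nor exons, so promoters, UTRs, exons and introns were not told apart. Overlap of at least 1 bp, covered bases and the distance from gene to region were computed in Python 3.11.15 with numpy 2.4.6 and pandas 2.3.3, Wilson 95% intervals with scipy 1.17.1 and figures with matplotlib 3.10.9. Overlaps and distances came out exact in 20 of 20 runs of this code on simulated data. Alternatives were a required cover of 50% of the body, genes widened by 1 kb, regions within 1 kb joined, the widest 50% of each list, loci in place of genes, and other neighbour distances and definitions of an active neighbour.

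The members, gene lists and comparisons were chosen with earlier results of these data known. The text names every X-linked receptor gene, the autosomal ones in any MSL2 or MOF region (0), up to 12 autosomal ones in H4K16ac or H3K36me3 by the number of lists and then by covered share, and the nearest active gene of each X-linked receptor gene in MOF or H4K16ac. Gr61a and Gr63a fall outside that rule. Or19a and Or19b, and Gr10a and Or10a, share sequence or position. Sequences of these genes were not used here.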

Additional observations from a re-analysis of the deposited data

How the results depend on the processing

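Joining regions within 1 kb, counting loci in place of genes (run for MOF and MNase H4K16ac on the X), and neighbour distances of 2 kb or 10 kb changed none of the main counts by over 1.5 times. In all, 34 of the recomputed main counts stayed within that limit and 18 did not. With 1 kb added to each gene, X-linked receptor genes in MNase H4K16ac at 3-4 h numbered 8, those in sonicated H4K16ac at 3-4 h 7, and those in H3K36me3 4 at both stages, while autosomal ones in sonicated H4K16ac numbered 5 at 11-12 h and 8 at 3-4 h. With at least 50% of the body required, H3K36me3 kept 0 X-linked genes at both stages and sonicated H4K16ac 0 autosomal ones at both stages. With the widest 50% of each list, X-linked counts were 2 for MOF at 3-4 h, 2 for sonicated H4K16ac at 3-4 h and 1 for H3K36me3 at both stages, and 1 autosomal gene was in sonicated H4K16ac at both stages. With H3K36me3 required over at least 50% of the neighbour, 7 of 14 X-linked receptor genes had an active neighbour at both stages. With 1 kb added, mononucleosomal MSL2 touched 1 X-linked gene, Or7a, at both stages, and subnucleosomal MSL2 touched 1 autosomal receptor gene at 11-12 h. These alternatives change what counts as a gene in a list by construction, and no other cause was tested. No paired analysis was possible because each list pools the replicates of its group, and for the same reason no replicate could be left out in turn. Regions are at least 1000 bp wide in most lists, which limits how finely a gene of about that length can be placed.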

Other observations

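A few genes beside the X-linked receptor genes, picked after their values were seen, had no H3K36me3 at either stage and more MNase H4K16ac at 11-12 h than at 3-4 h. Other such neighbours did not differ: CG3091, CG18262 and CG15337 were covered whole by MNase H4K16ac at both stages, and CG12470, fd19B and CG15322 were untouched at both. Over all X-linked genes without H3K36me3 at the stage, MNase H4K16ac touched 43.1% at 11-12 h and 21.5% at 3-4 h. The MNase dose differed with the stage here too. The yolk protein genes Yp1 and Yp2, near Gr9a, had 63.4% and 38.7% of their bodies under MNase H4K16ac at 11-12 h and 0 at 3-4 h, with no sonicated H4K16ac at either stage. Near Gr8a, t, a gene for an enzyme of histamine recycling in photoreceptors, was covered whole at 11-12 h and not at all at 3-4 h. On sonicated chromatin 46.2% of t was covered at 11-12 h and 22.6% at 3-4 h, so both preparations listed it at the later stage and only the sonicated one at the earlier. Obp8a and CG15369, also near Gr8a, were covered whole on MNase chromatin at 11-12 h and were untouched by MNase H4K16ac at 3-4 h and by sonicated H4K16ac at both stages. Gs2, next to Or10a, had 92.2% under MNase H4K16ac at 11-12 h and 0 at 3-4 h, and no sonicated H4K16ac at either stage.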
